A study of Mus musculus with 8 samples.

Results

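The chemokine genes described here are 5 members chosen by name, of 27998 genes in the matrix: the receptors Cxcr4 and Ackr3 and the ligands Cxcl12, Cxcl1 and Cxcl14. They were followed in droplet-based single-cell RNA-seq of E15.5 cerebral cortex from embryos of the mouse strain Tg(Ebf2-EGFP)FB58Gsat. In this strain a transgene with Ebf2 regulatory sequence drives EGFP, and EGFP-expressing cells were collected by FACS. No treatment is given for any sample. All 8 labelled samples form 1 group, about 8 embryos of 2 pregnant mice were pooled, and the cells were deposited as 1 matrix without a map from cells to samples. There were therefore no replicates and no test between groups. A UMI is a molecular barcode that marks 1 captured transcript. Levels are in CPM: a gene's UMIs were summed over the barcodes of a class and scaled to 1000000 UMIs in all. Intervals are exact 95% intervals that cover counting error only and leave out the spread between embryos. Those of levels and ratios also leave out the spread between barcodes, and are too narrow where a few barcodes hold many of the UMIs.

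The matrix held 3000 barcodes and 57180867 UMIs, with 10718 to 76690 UMIs per barcode and a median of 15832, and 2931 barcodes were kept after 69 likely doublets were removed. A barcode with at least 5 Reln UMIs per 10000 was called Reln-high. Reln encodes Reelin, the secreted glycoprotein of Cajal-Retzius (CR) neurons, and the Reln-high class held 472 barcodes. Among them, 200 had at least 1 Rspo3 UMI per 10000 (Rspo3-high) and 272 had less (Rspo3-low). Rspo3 encodes R-spondin 3, a secreted enhancer of Wnt signalling. The other neurons were 2443 barcodes, 14 barcodes were progenitor-like or cycling by their markers, and 2 met neither rule. Between 3 and 7 Reln UMIs per 10000 lay 57 barcodes, while 152 of the Reln-high barcodes had 0.5 to 2 Rspo3 UMIs per 10000, close to the limit between the Rspo3 classes, which are cut from a range of levels. Leaving out Reln, which defines the class, the other 9 markers on the CR list were all detected in Reln-high barcodes, where they summed to 2224 CPM, against 192 CPM in other neurons. Reln-high barcodes were deeper, with a median of 21541.5 UMIs against 15267, and 39.6% of them held more than 25000 UMIs against 9.86% of other neurons. All 3000 barcodes carried the same suffix, so barcodes shared between samples could not be counted.

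Chemokines are small secreted proteins that guide moving cells through receptors coupled to Gi proteins. Cxcl12 binds Cxcr4, which signals, and Ackr3, an atypical receptor that takes up Cxcl12 and signals through arrestins. In the embryonic cortex Cxcl12 from the meninges holds Cxcr4-bearing CR neurons below the pia as they spread over the cortical surface. Cxcl1 is a ligand of Cxcr2 and is best known for attracting neutrophils. Cxcl14 is a chemokine whose signalling receptor is less settled.

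In the GENCODE annotation of GRCm38 all 5 are protein-coding genes, and none overlaps another annotated gene. Cxcr4 (ENSMUSG00000045382) lies at chr1:128588199-128592293 on the minus strand, Ackr3 (ENSMUSG00000044337) at chr1:90203980-90216751 on the plus strand, Cxcl12 (ENSMUSG00000061353) at chr6:117168535-117181367 on the plus strand, Cxcl1 (ENSMUSG00000029380) at chr5:90891241-90893115 on the plus strand and Cxcl14 (ENSMUSG00000021508) at chr13:56288643-56296551 on the minus strand. Because Cxcr4, Cxcl12 and Cxcl1 were high together in Reln-high barcodes while Ackr3 and Cxcl14 were not, the 100 bases before each start site are shown, 5′ to 3′, from the RefSeq table for GRCm38.p6. All 5 members were matched in that table, and the last bases shown for Cxcl1 already lie in its first GENCODE exon. Capitals mark matches to TATAAA on either strand, which may overlap.

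Cxcr4, chr1:128592300-128592399, minus strand: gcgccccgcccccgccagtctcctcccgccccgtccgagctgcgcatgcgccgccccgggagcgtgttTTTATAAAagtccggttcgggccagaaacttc
Cxcl12, chr6:117168435-117168534, plus strand: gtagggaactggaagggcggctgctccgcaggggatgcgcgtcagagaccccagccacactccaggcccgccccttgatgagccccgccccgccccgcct
Cxcl1, chr5:90891145-90891244, plus strand: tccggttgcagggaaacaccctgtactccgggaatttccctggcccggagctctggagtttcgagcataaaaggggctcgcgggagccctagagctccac
Ackr3, chr1:90203880-90203979, plus strand: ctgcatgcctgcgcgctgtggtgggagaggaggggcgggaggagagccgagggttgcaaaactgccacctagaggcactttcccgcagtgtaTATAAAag
Cxcl14, chr13:56296552-56296651, minus strand: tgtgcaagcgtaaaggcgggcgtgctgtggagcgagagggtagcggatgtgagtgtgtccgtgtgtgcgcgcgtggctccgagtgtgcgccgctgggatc

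Over 250 bases before the start, Cxcr4 held 2 overlapping matches to TATAAA and Ackr3 held 1, and the other members held none. TATAAA was found in 12.4% of the 32851 promoters of this length in the table. The core of the motif bound by Ebf factors, CCCNNGGG on either strand, was in 11.8% of them and in none of the 5 members. Neither motif separated the members that were high in Reln-high barcodes from those that were low. Motifs this infrequent could hardly have done so in 5 promoters, so nothing is read from the sequences.

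Cxcr4, the signalling receptor for Cxcl12, was at 95.3 CPM in Reln-high barcodes (1155 UMIs, interval 89.9 to 101) and at 7.21 CPM in other neurons (304 UMIs, 6.42 to 8.07). The log2 ratio was 3.72 (3.54 to 3.91), 13.2-fold. Per barcode, 116 of the 472 Reln-high barcodes had no Cxcr4 UMI, 78 had 1, 79 had 2 and 199 had 3 or more, up to 11. Other neurons mostly had none: 2242 of 2443 were at 0 and 27 had 3 or more. The distributions overlapped, and the middle of the Reln-high barcodes was at 0.83 UMIs per 10000 against 0 in other neurons. After every barcode was thinned to 12000 UMIs, 60.9% of Reln-high barcodes had a Cxcr4 UMI (273 of 448, 56.2 to 65.5%) and 6.21% of other neurons (133 of 2140, 5.23 to 7.32%), with 24 and 303 shallower barcodes left out. At full depth these shares were 75.4% and 8.23%. Progenitor-like and cycling barcodes had 0 Cxcr4 UMIs, which allows up to 12.3 CPM (the level of 3 UMIs, used as the limit wherever a count is 0).

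Ackr3, the atypical receptor of the same ligand, went the other way. It was at 2.47 CPM in Reln-high barcodes (30 UMIs, 1.67 to 3.53) and at 6.43 CPM in other neurons (271 UMIs, 5.68 to 7.24), a log2 ratio of -1.38 (-1.97 to -0.83). No more than 3 UMIs were seen in any Reln-high barcode, 445 of which had none, while the highest other neuron had 6. The thinned share with a UMI was 3.35% in Reln-high barcodes (1.89 to 5.46%) against 6.73% in other neurons (5.70 to 7.87%). Among the clusters of barcodes described further on, that share was 1.71% (0.78 to 3.22%) in one led by Akap7, whose interval overlaps that of Reln-high barcodes, and 0 of 282 barcodes (up to 1.06%) in one led by Caln1, which lies under it.

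Cxcl12, the ligand of both receptors, was at 137 CPM in Reln-high barcodes (1656 UMIs, 130 to 143) against 14.8 CPM in other neurons (624 UMIs, 13.7 to 16.0). The log2 ratio was 3.21 (3.07 to 3.34), 9.23-fold. It was unevenly spread: 183 of the 472 Reln-high barcodes had no UMI, 69 had 1, 35 had 2 and 185 had 3 or more, up to 31. The 54 barcodes with 10 or more carried 50.9% of the Cxcl12 UMIs of the class. At 12000 UMIs per barcode Cxcl12 had a mean of 1.56 and a variance of 6.26 UMIs over Reln-high barcodes, while Cxcr4 had a mean of 1.21 and a variance of 1.81. The thinned share with a Cxcl12 UMI was 52.2% (47.5 to 56.9%) and 12.2% in other neurons (10.8 to 13.7%).

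Cells of the meninges also make Cxcl12, so their markers were counted in the same barcodes. Of 6 meningeal markers, 4 were detected in Reln-high barcodes and Col1a2 and Col3a1 were at 0. The list summed to 3.96 CPM there and 1.11 CPM in other neurons, and to no more than 1.77 UMIs per 10000 in any Reln-high barcode.

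Cxcl1 had the highest ratio of the 5 members, with 29.7 CPM (360 UMIs, 26.7 to 32.9) against 0.90 CPM (38 UMIs, 0.64 to 1.24). The log2 ratio was 5.04 (4.56 to 5.56), 33.0-fold, and on the scale of CPM + 1 it ranked 27th from the top of 11249 genes. Detection was partial: 310 of the 472 Reln-high barcodes had no UMI, 74 had 1, 46 had 2 and 42 had 3 or more, with a highest value of 19. Of the 2443 other neurons 2409 had none, 33 had 1 and 1 barcode had 5. After thinning, 112 of 448 Reln-high barcodes had a Cxcl1 UMI (21.1 to 29.3%) and 0.79% of other neurons did (0.46 to 1.27%). Endothelial markers summed to 4.12 CPM in Reln-high barcodes and 1.71 CPM in other neurons. For microglia the sums were 6.10 and 9.84 CPM, and C1qa, C1qb, Csf1r and P2ry12 were at 0 in Reln-high barcodes.

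Cxcl14 was low in Reln-high barcodes, with 2.80 CPM (34 UMIs, 1.94 to 3.92) against 13.5 CPM in other neurons (568 UMIs, 12.4 to 14.6), a log2 ratio of -2.26 (-2.81 to -1.76). With likely doublets kept (505 Reln-high barcodes) it was -1.67. Its UMIs sat in few cells of either class. In other neurons 2299 of 2443 barcodes had none, 14 had 10 or more and these 14 carried 53.7% of the UMIs, with a highest value of 59. In Reln-high barcodes 447 of 472 had none and the highest had 8. The thinned shares were 2.23% (1.07 to 4.07%) and 4.95% (4.07 to 5.96%), and the Reln-high share was close to the 2.27% of the cluster with the lowest Cxcl14 level, led by Rnd2 (0.92 to 4.61%). It is not read as expression across the class, and the part of free RNA in it was not tested.

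**Figure D1:**
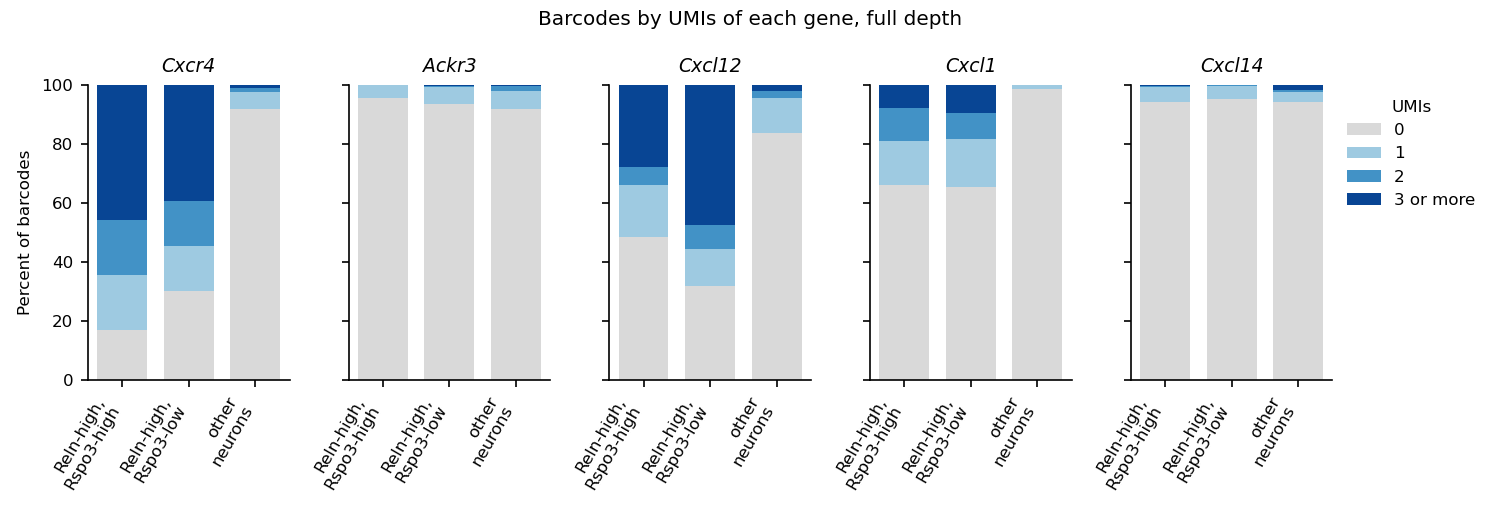
Percent of barcodes (y axis) with 0, 1, 2 or 3 and more UMIs of each gene at full depth, in 200 Rspo3-high and 272 Rspo3-low Reln-high barcodes and in 2443 other neurons. Cxcr4, Cxcl12 and Cxcl1 were detected in far more Reln-high barcodes than other neurons, while Ackr3 and Cxcl14 were rare in all 3 classes.

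These positions can be read against all genes. Of 11249 genes with at least 100 UMIs, 6.27% were at least 2-fold higher in Reln-high barcodes and 4.06% at least 2-fold lower, on the scale of CPM + 1. Cxcr4, Cxcl12 and Cxcl1 were among the former and Ackr3 and Cxcl14 among the latter, so all 5 members passed the fold in one direction or the other. Their log2 ratios on this scale were 3.55 for Cxcr4, 3.12 for Cxcl12, 4.01 for Cxcl1, -1.10 for Ackr3 and -1.93 for Cxcl14. The median of all genes tested was 0.11. The members had been chosen with earlier results of these data in view.

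**Figure D2:**
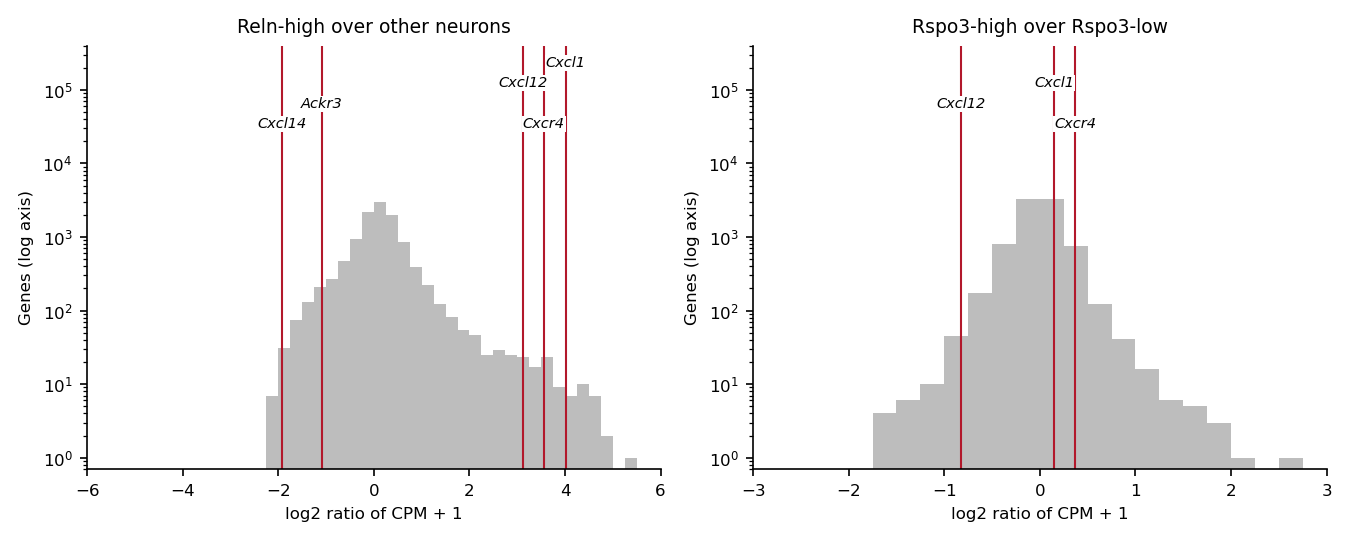
Number of genes (y axis, log scale) by log2 ratio of CPM + 1 (x axis) for Reln-high barcodes over other neurons (left) and Rspo3-high over Rspo3-low barcodes (right), with red lines at the members that had at least 100 UMIs. In the left panel Cxcr4, Cxcl12 and Cxcl1 stand in the right tail (3.12 to 4.01) and Ackr3 and Cxcl14 on the left (-1.10 and -1.93), while in the right panel Cxcl12 stands at -0.82.

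K-means clustering, made without any chemokine gene, gave 8 clusters, which are called here by their leading gene. Levels count all barcodes of a cluster, Reln-high ones included, unless stated. Outside the Reln-led cluster the members followed different clusters. Cxcr4 was highest in the Reln-led cluster (406 barcodes, all 10 CR markers at least 2-fold above the rest) at 107 CPM, followed by the Neurod1-led cluster (246 barcodes) at 37.2 CPM. The Pbx3-led cluster had 8.06 CPM and the Rnd2-led cluster 5.73 CPM, which were not separated by their interval. The Caln1-led, Fezf2-led and Akap7-led clusters, at 2.61, 2.56 and 2.32 CPM, were each not separated from the next. In the Neurod1-led cluster without its 22 Reln-high barcodes Cxcr4 was still at 33.2 CPM (191 UMIs in 224 barcodes, 28.6 to 38.2). Of the 27 other neurons with 3 or more Cxcr4 UMIs, 2 carried Gnrh1 at more than 100 UMIs and 24 of the other 25 were in this cluster. In those 25 barcodes, whose genes were named after the values were seen, Neurod1 was at 756 CPM against 90.0 CPM in the remaining other neurons. Neurod1 is a proneural transcription factor of young neurons. Calb2, which encodes calretinin, was at 759 against 103 CPM. Neurod1 leads the Neurod1-led cluster and Calb2 was at least 2-fold above the rest in it. The 25 barcodes were not compared with the rest of that cluster, so neither gene is tied to Cxcr4 within it.

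Ackr3 was highest in a cluster with 5.73 CPM of Cxcr4, above the Cxcr4 levels of the Caln1-led, Fezf2-led and Akap7-led clusters. In this Rnd2-led cluster 5 of 6 upper-layer markers were at least 2-fold above the rest. So were 3 of 8 radial glia markers (Vim, Nes and Fabp7) and 1 of 5 intermediate progenitor markers (Neurog2). The Rnd2-led cluster was at 19.5 CPM of Ackr3 (16.0 to 23.5) and the Fezf2-led cluster at 9.53 CPM (7.92 to 11.4). These levels differed from each other and from the next cluster by more than counting error. Further down, the Neurod1-led, Hmgb2-led, Pbx3-led, Reln-led and Akap7-led clusters, from 3.53 to 1.16 CPM, were each not separated from the next. The Caln1-led cluster had 0 Ackr3 UMIs in 333 barcodes, which allows up to 0.56 CPM.

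Cxcl12 was second to the Reln-led cluster (160.5 CPM, 153 to 168) in the Caln1-led cluster, with 32.9 CPM (28.3 to 38.2), and then in the Akap7-led cluster with 21.6 CPM (18.9 to 24.6). In the Caln1-led cluster the subplate markers Nr4a2, Nxph4 and Lpar1 were at least 2-fold above the rest. Its lowest level, 4.83 CPM, was in the Rnd2-led cluster. Of the 55 other neurons with 3 or more Cxcl12 UMIs, 22 were in the Akap7-led and 21 in the Caln1-led cluster. Cxcl1 was at 34.4 CPM in the Reln-led cluster and between 0 and 2.21 CPM in the other 7, among which no neighbours in that order were separated. The 2.21 CPM of the Neurod1-led cluster became 0.52 CPM without its Reln-high barcodes. Cxcl14 was highest in the Pbx3-led cluster at 49.0 CPM (41.7 to 57.3), where 1 barcode held 59 of 158 UMIs and without it the level was 30.9 CPM (25.1 to 37.6). The Caln1-led, Fezf2-led and Akap7-led clusters, at 15.6, 13.3 and 11.4 CPM, were each not separated from the next.

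The UMIs of Cxcr4 and Cxcl12 did not stand in 1 ratio across clusters. Without Reln-high barcodes, the Neurod1-led cluster held 191 Cxcr4 and 56 Cxcl12 UMIs, the Caln1-led cluster 14 and 175, and the Rnd2-led cluster 32 and 27. The part of free RNA in these counts was not tested. Interneurons, which are known to use both Cxcl12 receptors, were scarce: 7 barcodes reached 5 interneuron marker UMIs per 10000, and they held 1 Cxcr4 and 1 Ackr3 UMI.

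**Figure D3:**
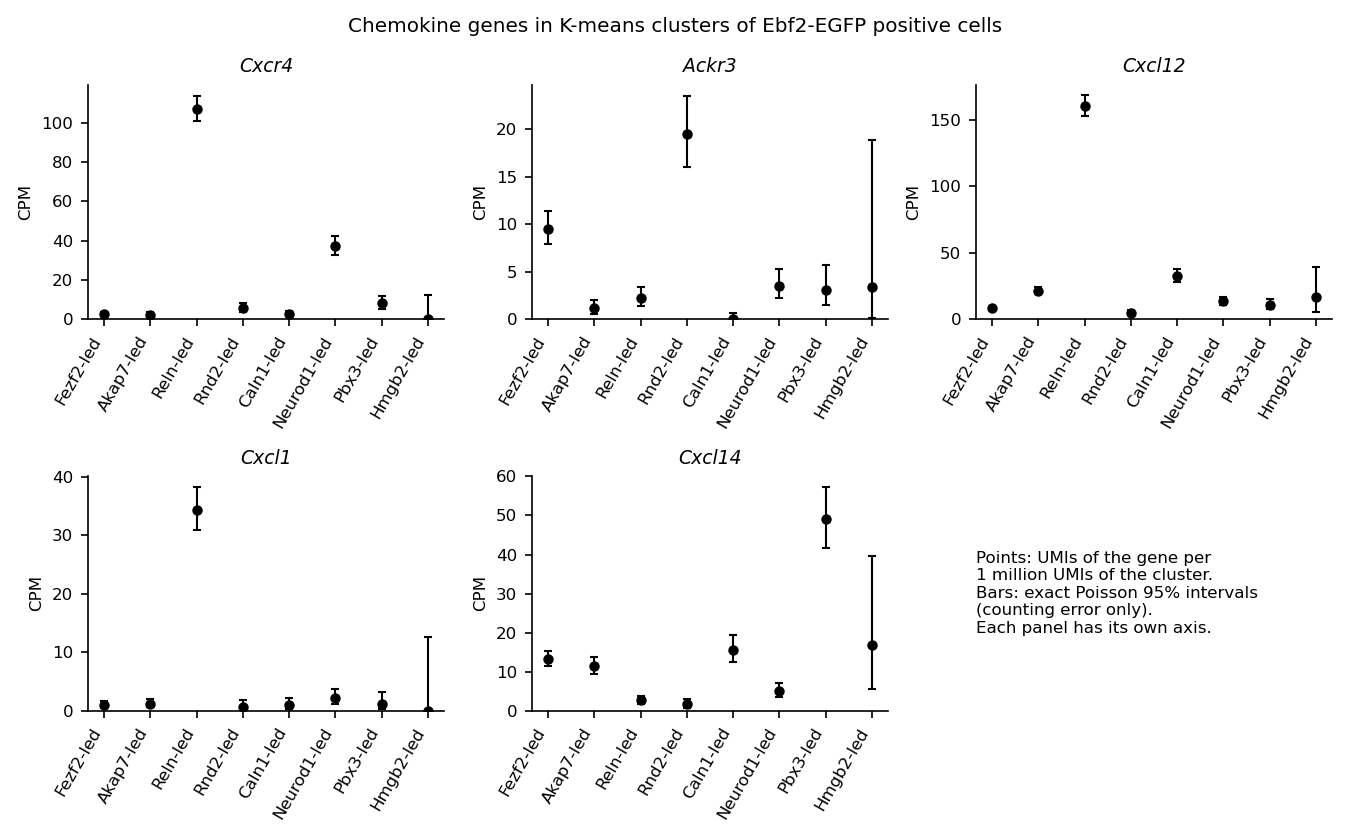
Level of each member (y axis, CPM, own scale in each panel) in 8 K-means clusters (x axis), with exact Poisson 95% intervals. The Reln-led cluster is highest for Cxcr4, Cxcl12 and Cxcl1, the Rnd2-led cluster for Ackr3 at 19.5 CPM and the Pbx3-led cluster for Cxcl14 at 49.0 CPM.

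Within the Reln-high class the members also varied. The 400 barcodes in the Reln-led cluster had 108 CPM of Cxcr4, 161 of Cxcl12 and 34.2 of Cxcl1, and the 72 outside it had 38.2, 24.7 and 8.86 CPM. Those 72 barcodes were deeper, with a median of 27882.5 UMIs against 21023. Along Reln itself, Cxcl12 was at 30.3 CPM in barcodes with 5 to 10 Reln UMIs per 10000, 55.6 at 10 to 15, 145 at 15 to 20 and 203 above 20. Cxcr4 went from 52.0 through 68.0 and 105 to 116 CPM over the same bins, and Cxcl1 from 11.2 through 22.5 and 26.1 to 40.1 CPM. Just under the Reln limit, the 146 other neurons with 2 to 5 Reln UMIs per 10000 had 25.7 CPM of Cxcl12, 9.50 of Cxcr4 and 2.38 of Cxcl1.

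Along Rspo3 the receptor and its ligand went in opposite directions. Cxcr4 was at 111 CPM in Rspo3-high barcodes (511 UMIs, 102 to 121) and 85.6 CPM in Rspo3-low barcodes (644 UMIs, 79.2 to 92.5), a log2 ratio of 0.37 (0.20 to 0.54). Cxcl12 was at 92.1 CPM (424 UMIs, 83.5 to 101) and 164 CPM (1232 UMIs, 155 to 173), a log2 ratio of -0.83 (-0.99 to -0.67). In thinned barcodes, Cxcr4 was detected in 68.8% of Rspo3-high (61.7 to 75.3%) and 55.2% of Rspo3-low barcodes (48.9 to 61.4%), while Cxcl12 was detected in 45.0% (37.8 to 52.4%) and 57.5% (51.3 to 63.6%). Barcodes with 10 or more Cxcl12 UMIs numbered 10 of 200 and 44 of 272. Cxcl1 was at 31.7 and 28.5 CPM (log2 ratio 0.16, -0.16 to 0.47) and Ackr3 at 1.95 and 2.79 CPM (log2 ratio -0.52, -1.83 to 0.67), so for these a difference was not detectable at this depth. For Cxcl14 the log2 ratio was 1.22 (0.16 to 2.32) on 20 and 14 UMIs. A single barcode with 758 Gnrh1 UMIs held 8 of the 20, and without it the ratio was 0.49. Without barcodes that held UMIs of both Xist and Y-linked genes (133 of the 2931, 61 of them Reln-high) it was 0.13. Within the Reln-led cluster alone the ratio was 1.74.

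None of the 3 members with at least 100 UMIs passed the 2-fold level in this comparison, where 0.397% of 8575 genes were at least 2-fold higher in Rspo3-high barcodes and 0.233% at least 2-fold lower. On the scale of CPM + 1 Cxcl12, at -0.82, ranked 8531st of 8575 from the top, and Cxcr4, at 0.37, ranked 445th. Cdkn1a, a cell-cycle inhibitor, had a log2 ratio of 1.81 (1.57 to 2.05) and Lhx1 0.97 (0.76 to 1.18). Ebf2, at -0.71, and Ndnf, at -0.68, were lower in Rspo3-high barcodes. For Trp73 and Lhx5 the intervals held 0, at 0.01 and 0.09.

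Depth differed between the Rspo3 classes, with medians of 19252.5 UMIs in Rspo3-high and 24188 in Rspo3-low barcodes. Among barcodes of at most 25000 UMIs, where the medians were 17144 and 17380.5, Cxcr4 was at 146 CPM in 141 Rspo3-high and 87.7 CPM in 144 Rspo3-low barcodes, and Cxcl12 at 91.6 and 151 CPM. The log2 ratios there were 0.74 for Cxcr4 and -0.73 for Cxcl12. Radial glia markers also moved with the split, with a median sum of 2.83 UMIs per 10000 in Rspo3-high and 1.34 in Rspo3-low barcodes, and 43 of 200 against 10 of 272 barcodes at 5 or more. All 8 were detected in the Rspo3-low class, and Hes1 was at 0 in the Rspo3-high class. Their part in the result was not tested.

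Over 4 steps of Rspo3 the ligand declined and the receptor was higher only at the top. Barcodes with no Rspo3 UMI (133) had 209.6 CPM of Cxcl12, those under 1 per 10000 (139) 136 CPM, those from 1 to 3 (114) 102 CPM and those at 3 or more (86) 70.8 CPM. Cxcr4 was at 88.8 and 83.7 CPM in the lowest steps, between 84.5 and 107 CPM by its interval in the next and at 144 CPM (125 to 164) in the highest. Cxcl1 had no steady course, with 45.5, 18.3, 34.3 and 26.5 CPM. Depth differed between these steps, with medians of 19451, 32609, 22666 and 16477.5 UMIs from the lowest step to the highest. The top step was therefore the shallowest, and the part of depth in its levels was not tested. Binned by depth, Cxcl12 had 64.6 CPM under 15000 UMIs, 89.9 from there to 20000, 201 from there to 25000 and 146 above, and Cxcr4 had 111, 126, 110.3 and 81.0 CPM.

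**Figure D4:**
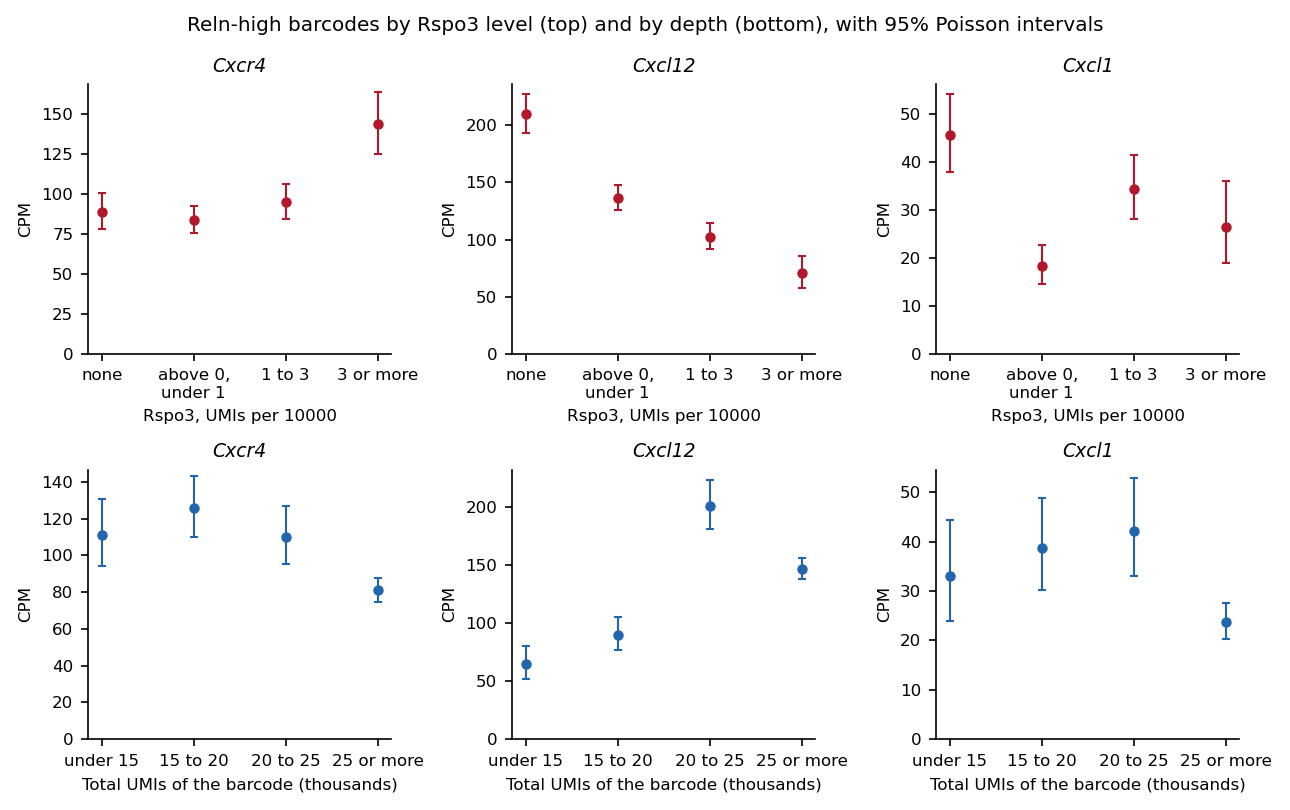
Levels of Cxcr4, Cxcl12 and Cxcl1 (y axis, CPM) in 472 Reln-high barcodes binned by Rspo3 (top row) and by total UMIs (bottom row), with exact Poisson 95% intervals. Cxcl12 is lower in each step of Rspo3, from 209.6 to 70.8 CPM, and Cxcr4 is highest in the top step at 144 CPM.

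Receptor and ligand were found in the same barcodes. Of 448 Reln-high barcodes thinned to 12000 UMIs, 158 (35.3%, 30.8 to 39.9%) had UMIs of both Cxcr4 and Cxcl12, 115 of Cxcr4 alone, 76 of Cxcl12 alone and 99 of neither. A Cxcr4 UMI was present in 67.5% of barcodes with Cxcl12 (61.1 to 73.5%) and in 53.7% of those without (46.8 to 60.6%). In the Rspo3-low class these shares were 65.1% (56.9 to 72.7%) and 41.8% (32.5 to 51.6%), and in the Rspo3-high class 71.8% (61.0 to 81.0%) and 66.3% (56.4 to 75.3%). Whether the classes differ in this was not tested. In other neurons 9 of 2140 barcodes had both. A Cxcr4 UMI was present there in 3.45% of barcodes with Cxcl12 (1.59 to 6.44%) and in 6.60% of those without (5.52 to 7.82%). Ackr3 was found in only 15 of the 448 Reln-high barcodes. A Cxcr4 UMI was present in 66.7% of these (38.4 to 88.2%) and in 60.7% of those without Ackr3 (56.0 to 65.4%). Cxcr4 with Ackr3 was seen in 10 of the 448 Reln-high barcodes, 2.23% (1.07 to 4.07%).

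**Figure D5:**
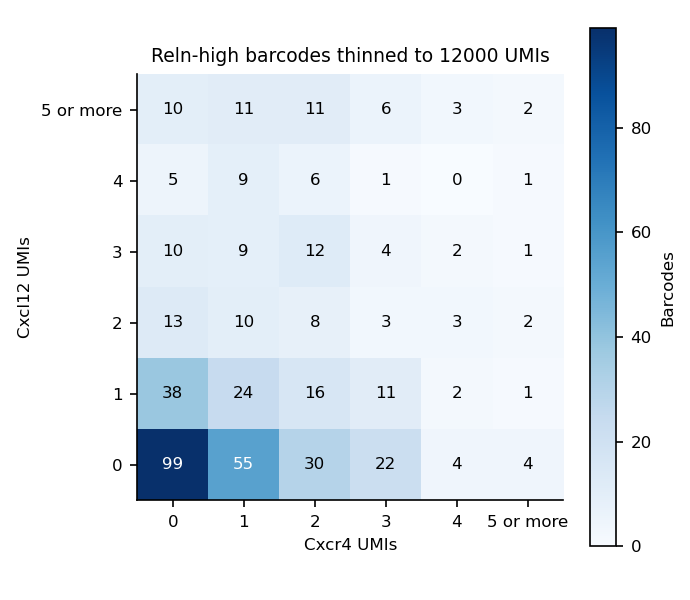
Number of Reln-high barcodes (cell text and colour) by Cxcr4 UMIs (x axis) and Cxcl12 UMIs (y axis) after thinning to 12000 UMIs per barcode. Barcodes spread over most of the grid, with 99 at 0 for both genes and 158 with at least 1 UMI of each.

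For the members with at least 500 UMIs (Cxcr4, Cxcl12 and Cxcl14), the genes whose pattern was most like theirs were ranked by Pearson's r of log-transformed levels over barcodes, which share 1 library and differ in depth. Over all 2931 barcodes, Cxcr4 was closest to Nhlh2 (r = 0.69), Emx2 (0.64), Reln (0.63), Cacna2d2 (0.60) and E330013P04Rik (0.59). Among the 472 Reln-high barcodes its order was Nhlh2 (r = 0.45), Mia (0.45), Rps27l (0.43), Tpbg (0.42) and Tmem158 (0.39). Cxcl12 was closest to Fibin, which encodes a secreted protein, both over all barcodes (r = 0.57) and among Reln-high barcodes (r = 0.59). Next came Ndnf (0.53), Reln (0.48), Fkbp9 (0.48) and Nhlh2 (0.46) over all, and Cd47 (0.49), 1500009L16Rik (0.47), Ndnf (0.46) and Cryab (0.45) among Reln-high barcodes. No gene reached r = 0.2 with Cxcl14 over all barcodes, the closest being Gnrh1 at 0.18. Among Reln-high barcodes Gnrh1 was at 0.59 with Cxcl14, where 1 barcode held 758 Gnrh1 and 8 Cxcl14 UMIs, and the next gene was at 0.19.

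Most of the wider chemokine family had too few UMIs to compare. Of a list of 60 ligands, receptors and relatives, 59 were in the matrix, and 11 had at least 100 UMIs in Reln-high barcodes and other neurons together, the members included. Among these 11, 4 were at least 2-fold higher, 2 lower and 5 in between, with a median log2 ratio of 0.52, against 6.27% higher, 4.06% lower and a median of 0.11 over all genes tested. The members, chosen by name with earlier results known, make up 5 of these 6 genes, so nothing is read from the count. The gene that joined Cxcr4, Cxcl12 and Cxcl1 was Cx3cl1, the membrane-bound fractalkine, at 23.7 CPM in Reln-high barcodes and 10.7 CPM in other neurons (log2 ratio 1.15, 0.93 to 1.37). Ccl27a was at 245 and 128 CPM, Ccl25 at 14.5 and 17.2 CPM and Ccl17 at 3.71 and 2.28 CPM. Ackr1, at 16.2 CPM in Reln-high barcodes, had a log2 ratio of 0.43 (0.19 to 0.67). Cxcr2, the receptor of Cxcl1, was at 2.80 (1.94 to 3.92) and 2.37 CPM (1.93 to 2.88), with no difference detectable at this depth. Ackr1 overlaps Cadm3 on the same strand, and Ccl25 and Ccl27a overlap Elavl1 and Il11ra1 on the other, so counts of these genes are uncertain. The symbol Ccl27a is also shared by several identifiers.

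Between the Rspo3 classes 7 genes of this list could be compared, none passed the fold, and the median log2 ratio was 0.03 against -0.00049 for all genes. Cx3cl1 was at 20.2 and 25.8 CPM in Rspo3-high and Rspo3-low barcodes (log2 ratio -0.35, -0.73 to 0.01) and Ccl27a at 229 and 255 CPM (-0.15, -0.26 to -0.04).

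A list of 42 signalling partners held G proteins, arrestins, receptor kinases, RGS proteins and motility genes, of which 37 were tested. On the scale of CPM + 1, 3 of the 37 were at least 2-fold higher in Reln-high barcodes and 3 lower, against 6.27% and 4.06% of all genes. Counts this small are not read as a difference from all genes. The list's median log2 ratio was 0.05. The ratios of single partners that follow leave out the added 1 CPM. With it Stat3 was at 0.97 and Gnai1 at -0.996, so neither was counted. Rgs5, a GTPase-activating brake on Gi and Gq signalling, was at 21.3 CPM against 0.59 CPM (log2 ratio 5.17, 4.57 to 5.82). Rgs5 also marks pericytes, whose 5 other markers summed to 2.80 CPM in Reln-high barcodes and 0.38 CPM in other neurons. Dock1, an exchange factor for Rac, was at 11.2 against 0.76 CPM (log2 ratio 3.89, 3.32 to 4.49). Arrb2, the arrestin that binds activated receptors, was at 73.1 against 34.5 CPM (1.08, 0.96 to 1.20), and Stat3 at 26.5 against 13.0 CPM (1.02, 0.82 to 1.23).

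At the low end stood Ptk2b, a focal adhesion kinase relative, at 1.15 against 3.63 CPM (log2 ratio -1.65, -2.56 to -0.86), and Adrbk2, the receptor kinase also called Grk3, at 8.74 against 23.1 CPM (-1.40, -1.71 to -1.11). Rgs16 was at 9.90 against 20.9 CPM (-1.08, -1.37 to -0.80) and Gnai1, a Gi alpha subunit, at 29.4 against 59.7 CPM (-1.02, -1.18 to -0.86). The other Gi subunits Gnai2 and Gnai3 were slightly higher in Reln-high barcodes, at 0.37 and 0.31 on the log2 scale. Of 32 partners tested between the Rspo3 classes none passed the fold, and the median was -0.08. Dock1 (-0.93, -1.55 to -0.36) and Rgs5 (-0.58, -0.99 to -0.18) were lower in Rspo3-high barcodes by more than counting error, the same side as Cxcl12.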

How the data were processed

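Single cells were captured on the 10x Genomics platform. The authors deposited 1 matrix of unnormalised UMI counts, made with Cell Ranger 2.0.0 on mm10, and the submitters' processing notes also name Seurat 2.0. No column of another sample was present. Counts were analysed in scipy 1.17.1, scanpy 1.11.5, Python 3.11.15 and scikit-learn 1.9.0. All barcodes had 1000 genes or more and no more than 10% of UMIs from mitochondria, and the 2.3% with the highest Scrublet scores were removed. Other neurons had at least 10 UMIs per 10000 of Tubb3, Stmn1, Stmn2, Dcx and Map1b, and under 5 of progenitor and of non-neuronal markers.

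The Reln limit came with the choice of genes, and the Rspo3 limit was set here. Members, lists and limits were chosen with earlier results of these data known. K-means (50 starts, 20 components, 2000 variable genes) left out the chemokine list. A cluster's marker counted when at least 2-fold above other barcodes. Intervals were exact Poisson (levels), conditional binomial (ratios) and Clopper-Pearson (shares). Fold counts used genes with at least 100 UMIs and a pseudocount of 1 CPM. Named genes were the members, listed chemokines with at least 50 UMIs, the 4 highest and 4 lowest partners, CR markers and the 5 genes of highest r among those with at least 1000 UMIs. The ratio step was tested on simulated data. Alternatives changed the Reln and Rspo3 limits, the doublet filter, depth, scaling and low-count minimum, and some, named in the closing section, were added after seeing the data. One gene of the named-gene rule is not reported here.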

Additional observations from a re-analysis of the deposited data

How the results depend on the processing

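The ratios, shares and counts were recomputed under the alternatives, and 111 of 133 values stayed within the interval of the reported value or, for counts, within 1.5 times. None of the called ratios reversed. For the rest the cause was not tested. Between Reln-high barcodes and other neurons, the log2 ratio of Cxcr4 was 3.53 with a Reln limit of 10 per 10000, 3.91 for the Reln-led cluster, 4.14 without barcodes above 25000 UMIs and 4.05 as a mean over barcodes. For Cxcl12 it was 3.47 for the Reln-led cluster, 2.96 without the deep barcodes and 3.05 as a mean over barcodes, and for Cxcl14 it was -1.67 without the filter. Between the Rspo3 classes, the log2 ratio of Cxcr4 was 0.63 with a Rspo3 limit of 2 per 10000, 0.74 without the deep barcodes and 0.62 as a mean over barcodes. That of Cxcl12 stayed between -0.96 and -0.73. Of the alternatives chosen after seeing the data, leaving out barcodes with UMIs of both sexes took the Cxcl14 ratio to 0.13, and leaving out the Gnrh1 barcodes took it to 0.49. Keeping only the Reln-led cluster, also chosen after seeing the data, took the Cxcl14 ratio to 1.74. At full depth the share of Reln-high barcodes with a UMI was 75.4% for Cxcr4, 5.72% for Ackr3, 61.2% for Cxcl12, 34.3% for Cxcl1 and 5.30% for Cxcl14, and the thinned share of Cxcl12 was 45.2% without the deep barcodes. Genes at least 2-fold lower in Reln-high barcodes numbered 457, and 728 without the deep barcodes. Between the Rspo3 classes 34 genes were higher and 20 lower. With genes of at least 20 UMIs these became 66 and 66, and without the deep barcodes 36 genes were lower. No paired analysis was possible because the cells of all samples form 1 matrix of 1 group. Ackr3 and Cxcl14, with 30 and 34 UMIs in Reln-high barcodes, limit what can be said of them within that class.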

Other observations

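A few barcodes carried the hormone gene Gnrh1 at a level far from all others, and they were noticed after the values were seen. Of the 2931 kept barcodes, 3 held 758, 733 and 765 Gnrh1 UMIs, and no other barcode held more than 2. All 3 had UMIs of Cxcr4 (4, 5 and 3) and of Cxcl14 (8, 5 and 17), none had an Ackr3 or Cxcl1 UMI, and 1 had a Cxcl12 UMI. The barcode with 758 was Reln-high, at 11.7 Reln UMIs per 10000, and fell in the Reln-led cluster. The other 2 were other neurons of the Pbx3-led cluster.

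With the Gnrh1 barcodes left out, 41 of the other neurons had 3 or more Cxcl14 UMIs. They carried 78.6% of the Cxcl14 UMIs of the other neurons that remained. They were spread over the Fezf2-led (18), Akap7-led (9), Pbx3-led (7), Caln1-led (6) and Neurod1-led (1) clusters. After the barcodes were picked, genes were ranked by fold with a constant added to each level. Tfap2c, at place 1, was at 66.2 CPM in these barcodes against 1.58 CPM in the remaining other neurons. Pbx3, at place 2, was at 75.2 against 14.7 CPM and Meis1, at place 6, at 38.1 against 3.27 CPM. The 13 other neurons with 3 or more Ackr3 UMIs were mostly in the Fezf2-led cluster (9). In the same kind of ranking Fst was at place 1, at 71.9 CPM in them against 10.8 CPM. Prokr2, a receptor for prokineticin 2, was at place 4, at 33.8 CPM against 4.25 CPM. The counting error of these levels was not computed.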
